A study of Schistocerca gregaria with 20 samples.

Results

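The pleuropodia, the paired glandular appendages of the first abdominal segment of the embryo, were set against the hind legs in 2 periods, and the question was which transcripts changed the difference between the tissues from one period to the next. The 12 libraries of days 7, 8, 8-9, 10, 11 and 12 were used, of 20 in the series, all from *Schistocerca gregaria* (the desert locust). They form 4 groups of 3 libraries. Pleuropodia and T3 legs of days 10, 11 and 12 make up the later period, when the pleuropodia secrete intensely. Pleuropodia and T3 legs of days 7, 8 and 8-9 make up the earlier period, when their glandular cells complete differentiation. All animals were untreated embryos of a gregarious laboratory colony, from eggs kept at 30 degrees Celsius, and T3 marks the thoracic segment that bears the jumping leg. Each library was made from mRNA of many pooled appendages, with 1 library per tissue and day, so the 3 libraries of a group differ in age as well as by chance.

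Pleuropodia form in the embryos of many insects and are lost at hatching. Their glandular cells stop dividing early, enlarge and build a brush border of microvilli, through which they release material into the fluid around the embryo. The organ has long been linked with a hatching enzyme that loosens the serosal cuticle, the chitin-bearing sheet under the eggshell. Chitin is degraded by chitinases, which cut the polymer, and by N-acetylglucosaminidases, which remove the terminal sugars, while proteases degrade the cuticular proteins around it.

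The values are RPKM, reads scaled by transcript length and library depth, deposited for 12988 transcripts. Depth of the 12 libraries lay between 15186075 and 36648791 reads. Differences are given on the log2(RPKM + 0.5) scale after scaling for library composition, while levels in RPKM are as deposited, without that scaling. The 0.5 added (the pseudocount) understates differences between low values. Where it understates the difference of 1 period more than that of the other, it can raise or lower the change between the periods. A called transcript had a Benjamini-Hochberg adjusted p below 0.05 in limma over the 12102 transcripts that reached 1 RPKM in 3 or more of the 12 libraries. The tissue labels fitted the marker of leg identity: dac, a transcription factor gene of the leg, was at 0.0253, 0.0552 and 0.0711 RPKM in pleuropodia of days 10, 11 and 12, against 65.6, 72.8 and 21.3 RPKM in legs. Pleuropodia of days 7, 8 and 8-9 held it at 0.0983, 0.0646 and 0 RPKM, against 82.3, 81.9 and 99.4 RPKM in legs. The legs of day 12 stood apart from the other libraries. Their root mean square deviation from the group mean was 0.899 on the log2 scale, against 0.309 to 0.504 in the other 11 libraries, and their scaling factor was 0.838, against 1.23 to 1.28 in the other legs.

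The difference between the tissues changed in 948 of 12102 transcripts, 7.83% of those tested. It moved upward, towards pleuropodia, in 239 transcripts (1.97% of those tested) and downward, towards legs, in 709 (5.86%). The median change among the calls was 2.09 for those that moved upward and -2.73 for those that moved downward, against -0.00356 over all transcripts tested. In all 239 upward calls the 3 daily differences of days 10-12 lay above the 3 of days 7-9, and in all 709 downward calls they lay below. The same separation was seen upward in 18% and downward in 19.4% of all transcripts tested. The daily differences are the values from which the calls were made, so a call favours this separation. The shares over all transcripts are therefore not a like baseline. Without scaling for composition the calls were 163 upward and 969 downward, so that 14.4% of the calls were upward in place of 25.2%, with a median over all transcripts of -0.27.

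**Figure D1:**
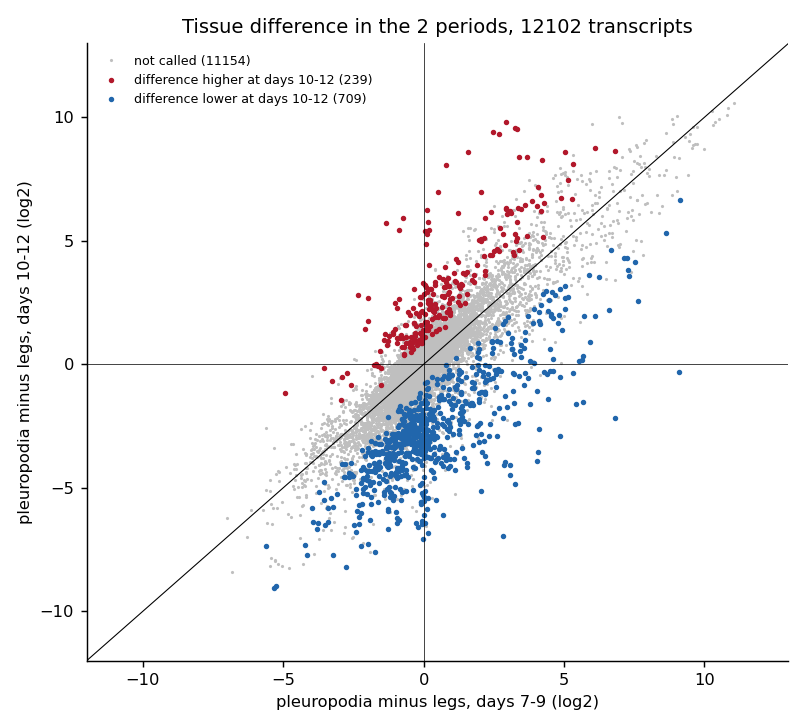
Pleuropodia minus legs at days 7-9 (horizontal axis) and at days 10-12 (vertical axis), both as log2 differences of scaled RPKM + 0.5, 1 point per transcript. Points on the diagonal kept their difference. The 239 upward calls (red) lie above it and the 709 downward calls (blue) below it, where most blue points are also below 0 on the vertical axis.

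The calls depended on single libraries in their number. Leaving out the legs of day 12 gave 472 upward and 1011 downward calls, while leaving out the legs of day 11 gave 120 and 407, those of day 10 gave 142 and 462, and those of day 7 gave 131 and 446. Upward calls numbered 157 without the legs of day 8, 152 without the legs of day 8-9, 149 without the pleuropodia of day 11, 155 without those of day 12 and 151 without those of day 7. Of the 948 called transcripts, those called again in the same direction numbered 502 of 783 still tested without the legs of day 11, 572 of 947 without the legs of day 7 and 766 of 782 without the legs of day 12. Without the pair of day 8-9, which came from another sequencing centre in both tissues, there were 161 upward and 349 downward calls, and 460 of 934 called transcripts still tested were called again.

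The tissues differed more widely at days 10-12. Pleuropodia were higher in 3235 transcripts (26.7%) and lower in 3098 (25.6%) at days 10-12, 52.3% of those tested, while at days 7-9 they were higher in 2686 (22.2%) and lower in 2011 (16.6%), 38.8% of those tested. The balance of the directions depended on the scaling. Without scaling for composition pleuropodia were higher in 1813 and lower in 5064 at days 10-12, and higher in 2020 and lower in 2686 at days 7-9. The spread of the daily difference over all transcripts (its SD on the log2 scale) was 1.57, 1.76 and 1.74 at days 7, 8 and 8-9 and 2.12, 2.1 and 2.27 at days 10, 11 and 12. The 3 later days all lay above the 3 earlier ones, with a mean of 2.16 ± 0.0935 against 1.69 ± 0.107 (SD, n = 3 days each). The exact two-sided permutation test gave p = 0.1, the smallest that 3 days against 3 allow. The share of transcripts more than 2-fold apart was 45.9%, 45.5% and 41.4% at days 10, 11 and 12, against 30.7%, 34.4% and 34.1% at days 7, 8 and 8-9.

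**Figure D2:**
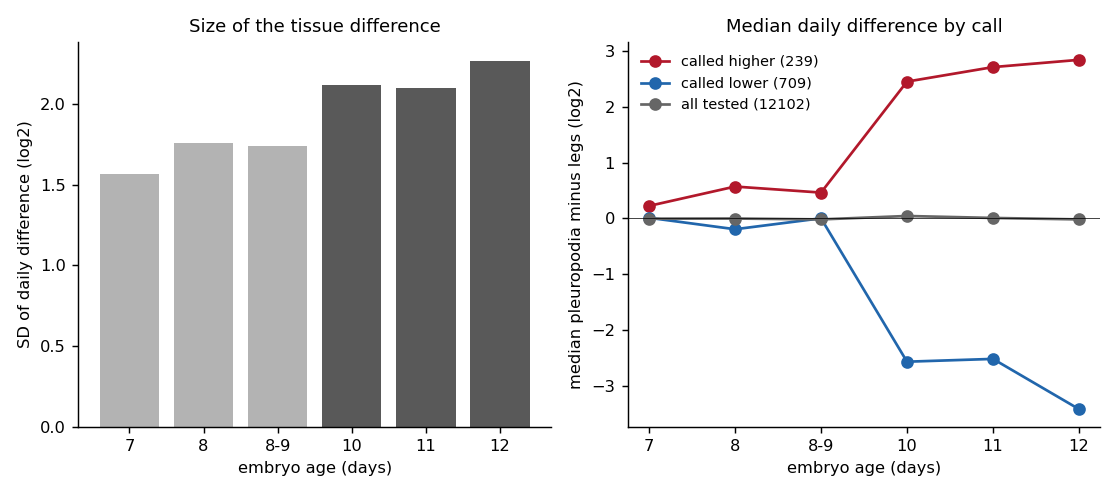
Left, the SD over 12102 transcripts of pleuropodia minus legs (log2) on each day, lowest at day 7 (1.57) and highest at day 12 (2.27). Right, the median of that difference for the 239 upward calls, the 709 downward calls and all transcripts tested. The medians of the calls lie between -0.196 and 0.569 at days 7 to 8-9 and are at least 2.45 above or 2.52 below 0 at days 10 to 12.

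Upward calls mostly came from a rise in pleuropodia. Of the 239, 208 (87%) rose in pleuropodia between the periods with no call in legs, 17 fell in legs only, 6 rose in pleuropodia and fell in legs, 5 rose in both tissues and 3 were called in neither. The median change of these 239 was 1.96 in pleuropodia and -0.0026 in legs. Among the downward calls a rise in legs was the commonest. Of the 709, 456 (64.3%) rose in legs with no call in pleuropodia, 151 fell in pleuropodia only, 69 fell in pleuropodia and rose in legs, 7 rose in both, 2 fell in both and 24 were called in neither. Their median change was -0.428 in pleuropodia and 2.13 in legs. These numbers include transcripts that passed the filter of 1 RPKM through a single group alone, mostly the legs of days 10-12, for which the filter itself selects a rise in legs. Without such transcripts 534 downward calls were left, of which 294 (55.1%) rose in legs only and 140 (26.2%) fell in pleuropodia only, with a median change of -0.786 in pleuropodia and 1.89 in legs. Of the 220 upward calls left in the same way, 190 (86.4%) rose in pleuropodia only. Over all transcripts, pleuropodia rose in 1417 (11.7%) and fell in 1283 (10.6%), together 22.3%, and legs rose in 1231 (10.2%) and fell in 407 (3.36%), together 13.5%. Without scaling for composition the majority in pleuropodia turned, with 692 that rose and 2766 that fell. The counts of pleuropodia that rose and fell were 2145 and 2131 without the legs of day 12, 752 and 519 without the pleuropodia of day 12, and 837 and 562 without those of day 7. The falls in pleuropodia numbered 798 without the pleuropodia of day 11 and 851 without those of day 8-9. Legs rose in 720 and fell in 106 without the legs of day 7, in 814 and 234 without those of day 10, and in 768 and 257 without those of day 11. The falls in legs numbered 211 without the legs of day 8, 167 without those of day 8-9 and 265 without the pleuropodia of day 11. In bulk tissue, fewer cells of a type and less RNA per cell cannot be told apart.

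Set by their standing in each period, 116 of the 239 upward calls were newly higher in pleuropodia, without a call at days 7-9 and higher at days 10-12. In 93 a lead that pleuropodia already had was widened, with a median difference of 4.63 at days 10-12, against 2.37 at days 7-9. In 13 the sign was crossed, in 13 a deficit closed and in 4 a deficit narrowed. Among the 709 downward calls 336 were newly lower in pleuropodia, and in 173 a deficit was widened. A lead of pleuropodia closed in 84, narrowed in 53 and was crossed to a deficit in 62, and 1 call fell in none of these classes.

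**Figure D3:**
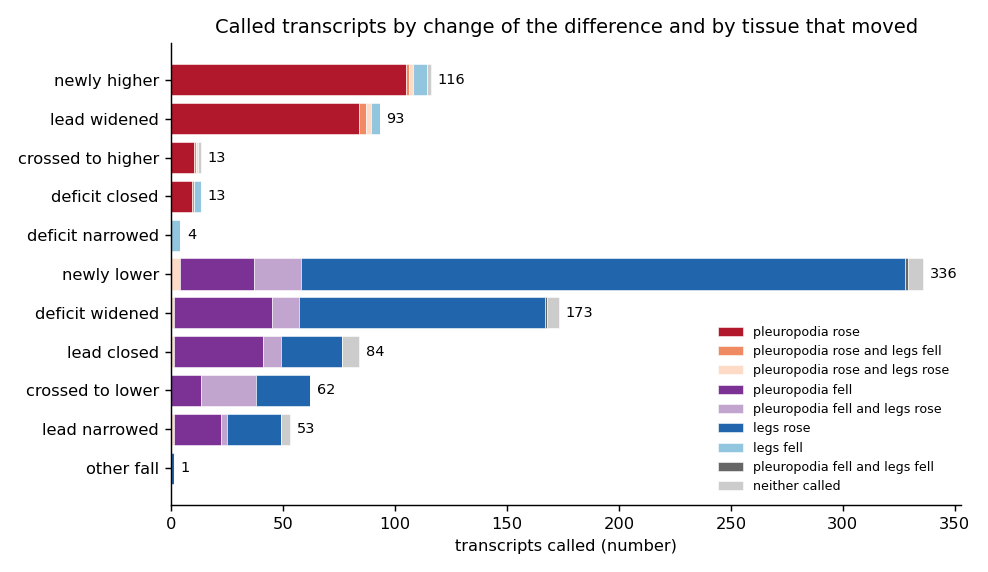
Number of called transcripts in each class of change, split by the tissue that was called as changed between the periods. Red dominates the upper 4 classes (pleuropodia rose, 105 of the 116 newly higher) and blue the newly lower and deficit widened classes (legs rose, 270 of 336 and 110 of 173), while purple (pleuropodia fell) is the commonest colour for leads that closed (40 of 84).

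The levels of the called transcripts differed between the groups as the calls require. The median over the 709 of the mean level was 0.279 RPKM in pleuropodia and 9.72 RPKM in legs at days 10-12, against 1.18 RPKM in pleuropodia and 1.07 RPKM in legs at days 7-9. For the 239 upward calls it was 11.4 RPKM in pleuropodia and 1.4 RPKM in legs at days 10-12, against 3.05 RPKM in pleuropodia and 2.17 RPKM in legs at days 7-9. Over all transcripts tested it was 5.78 RPKM in pleuropodia and 9.84 RPKM in legs at days 10-12, against 7.98 RPKM in pleuropodia and 9.08 RPKM in legs at days 7-9. These levels are not scaled for composition. The factors by which scaling divides were 0.795, 0.717 and 0.642 in pleuropodia of days 10, 11 and 12, against 1.24, 1.28 and 0.838 in legs. After scaling, the median tissue difference over all transcripts was -0.00778 at days 10-12 and -0.0183 at days 7-9. A low level in pleuropodia at days 10-12 is part of what a downward call selects. Of the 709, 164 reached 1 RPKM in legs of days 10-12 only, so they were tested through the group in which they are high. The same held in pleuropodia of days 10-12 for 18 of the 239. With a minimum of 5 RPKM in 3 libraries, 150 upward and 407 downward calls were left of 8850 transcripts tested.

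Named transcripts come from 98 members of 15 lists that the study names, extended by 10 identified afterwards. Of the 108, 107 were tested, 10 moved upward and 1 downward, with a median change of 0.495. Over all 12102 transcripts 1.97% moved upward and 5.86% downward, with a median of -0.00356, which is the background for the count and median of each list. With the day as a block, so that pleuropodia and legs of the same age are compared directly, 14 moved upward and 6 downward. Without the legs of day 12 there were 19 upward and 3 downward calls, and without the pleuropodia of day 8 there were 16 and 2. Downward calls numbered 2 without the pleuropodia of day 7, those of day 11 or the legs of day 8. The 77 most abundant members are transcripts that the study picked as higher in highly secreting pleuropodia in these same libraries, which favours an upward move, so their counts are not independent evidence of a direction. Of these 77, all were higher in pleuropodia at days 10-12 and 73 already at days 7-9. In 9 the difference moved upward and in 0 downward in limma, with a median of 0.37. At an unadjusted p below 0.05 the numbers were 20 upward and 3 downward, and with voom on the recovered reads 5 and 0. Their summed level was 128300, 196300 and 186000 RPKM in pleuropodia of days 10, 11 and 12, against 3589, 3700 and 4341 RPKM in legs. At days 7, 8 and 8-9 it was 38240, 85350 and 58170 RPKM in pleuropodia, against 3074, 3680 and 3511 RPKM in legs.

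Enzymes of sugar metabolism gave 2 upward calls among 5 members, with a median change of 1.77 over the list. A myrosinase-like glycosyl hydrolase (SgreTa0001321), of a family that releases sugars from glycosides, was at 1500, 1580 and 3131 RPKM in pleuropodia of days 10, 11 and 12, against 3.38, 4.66 and 3.74 RPKM in legs. In the earlier period, days 7, 8 and 8-9, it was at 0.335, 11.8 and 1.99 RPKM in pleuropodia, against 0.0611, 0.0512 and 0.00841 RPKM in legs. Pleuropodia of the later days stood far above all other libraries, and both tissues rose. The difference increased by 6.91 ± 1.11 (SE, n = 3 libraries in each of 4 groups, adjusted p = 0.0043). With a pseudocount of 0.1 the increase was 5.47 (adjusted p = 0.033), and with 1 it was 7.36 (adjusted p = 0.0016). With voom on the recovered reads, which treats low values otherwise, the difference increased by 3.63 (adjusted p = 0.44).

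Phosphoenolpyruvate carboxykinase (SgreTa0013377), the enzyme that commits carbon to new glucose, was at 432, 434 and 1020 RPKM in pleuropodia of days 10, 11 and 12, against 19, 16.1 and 5.59 RPKM in legs. Earlier, at days 7, 8 and 8-9, the level was 77.5, 117 and 98.4 RPKM in pleuropodia, against 123, 28.1 and 39.2 RPKM in legs, so the tissues overlapped then. It was newly higher in pleuropodia, by 6.14 at days 10-12. The difference increased by 4.93 ± 0.80 (SE, adjusted p = 0.0046), and it kept the call under every alternative run, with adjusted p between 0.0047 and 0.038. Pleuropodia rose by 3.07 ± 0.57 (adjusted p = 0.005), while the change in legs, -1.86 ± 0.57, did not pass (adjusted p = 0.055). The other 3 members, among them glutamate dehydrogenase, were not called.

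Of 4 transporters of ions and water 1 was called, and the median change of the 4 was 2.14. A sodium:neurotransmitter symporter (SgreTa0017826), a membrane carrier that takes up small amines or amino acids with sodium, was at 563, 302 and 757 RPKM in pleuropodia of days 10, 11 and 12, against 0.489, 0.391 and 0.589 RPKM in legs. On the earlier days 7, 8 and 8-9 it was at 0.652, 11.1 and 9.01 RPKM in pleuropodia. In legs of those days it had 1, 0 and 0 reads, where 3 reads would amount to 0.102, 0.0965 and 0.127 RPKM. The lead widened by 6.22 ± 1.07 (SE, adjusted p = 0.006), and by 3.23 with voom on the recovered reads (adjusted p = 0.5). With a pseudocount of 0.1 it widened by 5.05 (adjusted p = 0.035), and with 1 by 6.37 (adjusted p = 0.003).

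The aquaporin (SgreTa0017577), a water channel, was at 537, 730 and 639 RPKM in pleuropodia of days 10, 11 and 12, against 0.33, 0.485 and 0.348 RPKM in legs. Levels at days 7, 8 and 8-9 were 21.7, 194 and 144 RPKM in pleuropodia, against 0.115, 0.087 and 0.571 RPKM in legs. It was thus high in pleuropodia in both periods and lowest there at day 7. The change in the difference, 3.07 ± 0.98 (SE), did not pass (adjusted p = 0.089). It passed without the pleuropodia of day 7 (2.02, adjusted p = 0.017) and without those of day 8 (3.73, adjusted p = 0.035). The sodium pump subunit, alpha of the Na+, K+ ATPase, gave 1.21 ± 0.40 (SE, adjusted p = 0.1), and passed with the day as a block (adjusted p = 0.018) and without the legs of day 12 (1.49, adjusted p = 0.019). The V-ATPase proteolipid subunit, part of the proton pump, was higher in pleuropodia in both periods, by 2.52 at days 10-12 and 2.74 at days 7-9.

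**Figure D4:**
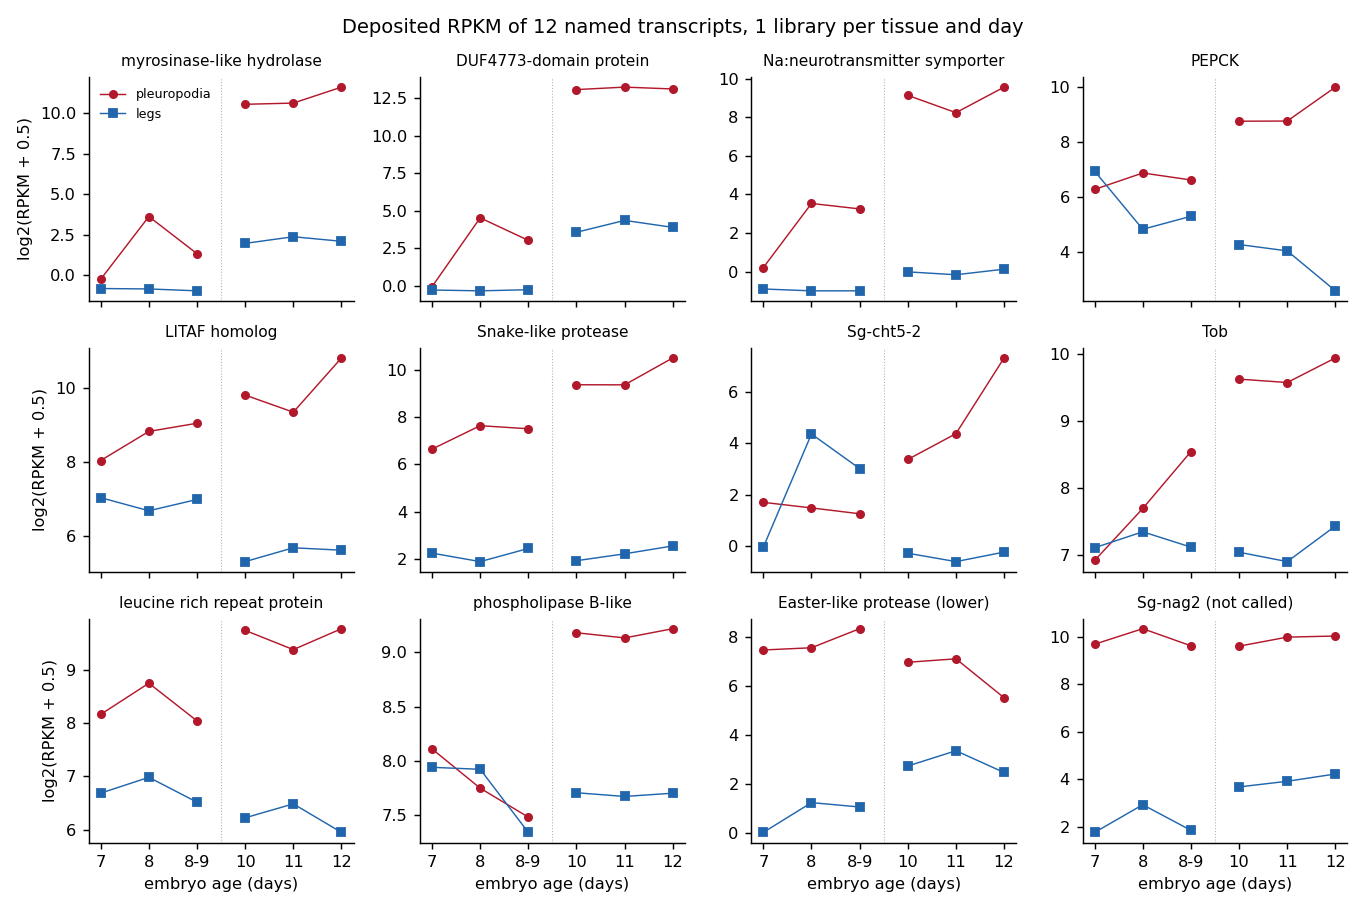
Deposited level, log2(RPKM + 0.5), of 12 named transcripts by embryo age, in pleuropodia (red circles) and legs (blue squares), 1 library per point, with a dotted line between the periods and its own vertical scale in each panel. PEPCK is phosphoenolpyruvate carboxykinase. In the first 10 panels pleuropodia rise above their earlier level, in the Easter-like protease legs rise (5.05 to 9.78 RPKM at days 10-12, against 0.516 to 1.86 RPKM at days 7-9), and Sg-nag2 stays high in pleuropodia throughout.

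Of 9 chitin-related transcripts, chitinases, hexosaminidases and their relatives with a chitin-binding Peritrophin-A protein, 1 moved upward and the other 8 were not called, with a median change of -0.704. The call was that of the chitinase Sg-cht5-2 (SgreTa0015585). All 9 had been called higher in pleuropodia of days 10-12 by the study, and its other chitinases and their relatives were not listed. Sg-cht5-2 was at 9.87, 20.3 and 161 RPKM in pleuropodia of days 10, 11 and 12, against 0.319, 0.153 and 0.345 RPKM in legs. At days 7, 8 and 8-9 it was at 2.75, 2.29 and 1.88 RPKM in pleuropodia, against 0.465, 20.1 and 7.6 RPKM in legs, where days 8 and 8-9 exceeded pleuropodia. The difference increased by 6.63 ± 1.58 (SE, adjusted p = 0.028). The call was lost when the legs of day 8, 8-9, 10 or 11 or the pleuropodia of day 7, 8 or 8-9 were left out (adjusted p = 0.053 to 0.072), without the pair of day 8-9 (0.13) and with voom (0.16).

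The N-acetylglucosaminidase Sg-nag2 (SgreTa0005600) was at 774, 1006 and 1039 RPKM in pleuropodia of days 10, 11 and 12, against 12.4, 14.7 and 18.3 RPKM in legs. Pleuropodia of days 7, 8 and 8-9 held it at 819, 1286 and 782 RPKM, against 2.93, 7.17 and 3.14 RPKM in legs. Its level in pleuropodia overlapped between the periods, while legs rose by 1.91 ± 0.39 (SE, adjusted p = 0.0089). The difference changed by -1.43 ± 0.55 (SE, adjusted p = 0.17), and was called with the day as a block (adjusted p = 0.018) and without scaling (-1.76, adjusted p = 0.03). The related Sg-fdl gave -1.83 ± 0.58 (SE, adjusted p = 0.086), called with the day as a block (adjusted p = 0.025), without scaling (-2.28, adjusted p = 0.015) and with a pseudocount of 0.1 (-2.59, adjusted p = 0.041). Sg-hex, a further hexosaminidase, gave 3.14 ± 0.90 (SE, adjusted p = 0.06). It was at 56, 49.7 and 225 RPKM in pleuropodia of days 10, 11 and 12, against 1.91, 2.15 and 2.92 RPKM in legs, and at 10.6, 20.1 and 32.4 RPKM in pleuropodia of days 7, 8 and 8-9, against 2.58, 5.47 and 4.59 RPKM in legs. Sg-hex was called with the day as a block (adjusted p = 0.019), without scaling (2.84, adjusted p = 0.045) and without the legs of day 12 (3.46, adjusted p = 0.04).

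The chitinase Sg-cht5-1 (SgreTa0017664) spanned a wide range within the later period. It was at 49.1, 709 and 7102 RPKM in pleuropodia of days 10, 11 and 12, against 167, 55.9 and 15.4 RPKM in legs, so the order of the tissues at day 10 was the reverse of that at day 12. In the earlier period, days 7, 8 and 8-9, it was at 83.1, 51.4 and 88.2 RPKM in pleuropodia, against 0.33, 7.12 and 2.65 RPKM in legs. With such a spread among the days of a group no change between the periods passed the test, neither in pleuropodia (3.61 ± 1.53, SE, adjusted p = 0.11) nor in legs (4.39 ± 1.53, SE, adjusted p = 0.085).

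Serine proteases gave 1 call in each direction among 15 members, all 15 of them higher in pleuropodia in both periods, with a median change of -0.122. The study had picked these 15 as higher in pleuropodia of days 10-12 in these same libraries, which favours a higher level there. Over all transcripts 26.7% were higher at days 10-12 and 22.2% at days 7-9. The proteins resemble Snake and Easter, which in *Drosophila* belong to a cascade of proteases that activate one another. A Snake-like protease (SgreTa0000783) was at 657, 655 and 1441 RPKM in pleuropodia of days 10, 11 and 12, against 3.32, 4.18 and 5.39 RPKM in legs. Earlier, at days 7, 8 and 8-9, the level was 99.5, 198 and 181 RPKM in pleuropodia, against 4.27, 3.22 and 4.97 RPKM in legs. Legs overlapped between the periods and the lead of pleuropodia widened by 2.76 ± 0.64 (SE, adjusted p = 0.024). The call was lost without the legs of day 7, 8-9, 10 or 11 or the pleuropodia of day 7 (adjusted p = 0.055 to 0.066) and without the pair of day 8-9 (0.097).

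An Easter-like protease (SgreTa0006780) was the only list member with a downward call. It was at 126, 139 and 45.7 RPKM in pleuropodia of days 10, 11 and 12, against 6.17, 9.78 and 5.05 RPKM in legs. Levels at days 7, 8 and 8-9 were 178, 190 and 326 RPKM in pleuropodia, against 0.516, 1.86 and 1.59 RPKM in legs. Pleuropodia stayed above legs on all 6 days, but the lead narrowed by 2.94 on the log2 scale (-2.94 ± 0.59, SE, adjusted p = 0.014), and legs rose by 2.17 ± 0.42 (adjusted p = 0.0069). Without the pair of day 8-9 the call was lost (-2.78, adjusted p = 0.058). Another Easter-like protease (SgreTa0003661), at 1252 to 1455 RPKM in pleuropodia of days 10-12 and 653 to 965 RPKM at days 7-9, gave -2.28 ± 0.63 (SE, adjusted p = 0.053). It was called with the day as a block (adjusted p = 0.026), without scaling (-2.66, adjusted p = 0.025) and without the legs of day 8 (-2.86, adjusted p = 0.0044).

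The list of metallopeptidases and exopeptidases had 12 members, among them a cathepsin L-like cysteine protease (SgreTa0000627), which is neither. In limma 0 of the 12 were called, with 2 upward and 2 downward at an unadjusted p below 0.05 and 0 with voom. All 12 were nonetheless higher in pleuropodia in both periods. The study had picked these 12 as higher in pleuropodia of days 10-12 in these same libraries, which favours that result. Over all transcripts 26.7% were higher at days 10-12 and 22.2% at days 7-9. An aminopeptidase N-like transcript (SgreTa0017219), of a family that trims peptides from the amino end, was at 624, 385 and 164 RPKM in pleuropodia of days 10, 11 and 12, against 0.687, 0.911 and 1.08 RPKM in legs. At days 7, 8 and 8-9 it was at 8.58, 72.7 and 30.3 RPKM in pleuropodia, against 0.195, 0.266 and 0.235 RPKM in legs. Its difference changed by 3.19 ± 0.96 (SE, adjusted p = 0.073), and the change passed with a pseudocount of 1 (3.47, adjusted p = 0.048) and without the pleuropodia of day 8 (3.97, adjusted p = 0.015). An angiotensin-converting enzyme (SgreTa0014009), a dipeptide-removing peptidase, gave 2.86 ± 0.95 (SE, adjusted p = 0.1), and 3.67 without the legs of day 12 (adjusted p = 0.0091).

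Of 6 lysozymes, which cut bacterial cell walls, 0 were called in limma and 0 with voom, with 2 upward at an unadjusted p below 0.05, and 5 were higher in pleuropodia in both periods. The remaining member, Sg-LyzI-4 (SgreTa0016727), was lower in pleuropodia, with differences of -3.345 at days 10-12 and -3.839 at days 7-9. The study had called these 6 different between the tissues at days 10-12 in these same libraries, which favours such differences. Over all transcripts 26.7% were higher at days 10-12 and 22.2% at days 7-9. Its other lysozymes were not listed. The I-type lysozyme Sg-LyzI-1 (SgreTa0017707) was at 7292, 6709 and 6136 RPKM in pleuropodia of days 10, 11 and 12, against 9.64, 18.7 and 8.25 RPKM in legs. Pleuropodia of days 7, 8 and 8-9 held it at 480, 3717 and 253 RPKM, against 18.9, 16.9 and 9.41 RPKM in legs. The level in pleuropodia of day 8 stood apart from its neighbours, and the change in the difference, 3.76 ± 1.12 (SE), passed only without that library (4.97, adjusted p = 0.00085, against 0.071 with it). Sg-Lyz-like-1 gave 3.29 ± 1.04 (SE, adjusted p = 0.087), and 4.26 without the pleuropodia of day 10 (adjusted p = 0.01).

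The C-type lysozyme Sg-LyzC-1 (SgreTa0007897) was at 6621, 17090 and 19650 RPKM in pleuropodia of days 10, 11 and 12, against 48.5, 48.4 and 31.9 RPKM in legs. In the earlier period, days 7, 8 and 8-9, it was at 84.9, 628 and 2570 RPKM in pleuropodia, against 0.53, 9 and 2.85 RPKM in legs. It rose in pleuropodia by 5.16 ± 1.13 (SE, adjusted p = 0.01) and in legs by 3.85 ± 1.13 (SE, adjusted p = 0.046). Its level in legs stayed far below that in pleuropodia of the same day throughout.

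Such a rise in both tissues was frequent among the 77 abundant transcripts. In pleuropodia 39 of them rose between the periods and in legs 23, and 14 rose in both, while none fell in either tissue. Over all 12102 transcripts 1417 rose in pleuropodia, 1231 in legs and 225 in both. The 77 were picked for a high level in pleuropodia of days 10-12, which favours a rise there over a fall. A serine protease (SgreTa0001636) rose by 4.46 ± 0.43 in pleuropodia (adjusted p = 0.00022) and by 4.58 ± 0.43 in legs (SE, adjusted p = 0.00015). It was at 6511, 6754 and 9470 RPKM in pleuropodia of days 10, 11 and 12, against 30.7, 66.3 and 51.1 RPKM in legs, and at 535, 775 and 266 RPKM in pleuropodia of days 7, 8 and 8-9, against 1.53, 1.98 and 1.49 RPKM in legs. A collagen (SgreTa0003175), a protein of the extracellular matrix, rose by 4.04 ± 0.35 in pleuropodia and by 3.95 ± 0.35 in legs (SE, adjusted p = 0.00012 in both). A cytochrome P450 of the CYP4G type (SgreTa0006282), whose relatives make cuticular hydrocarbons in other insects, rose by 2.54 ± 0.38 in pleuropodia (adjusted p = 0.002) and by 2.4 ± 0.38 in legs (adjusted p = 0.0023). In these cases the tissue difference was large in both periods and both tissues moved by nearly the same factor. Whether RNA of the pleuropodia in the leg libraries had a part in these levels was not tested.

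**Figure D5:**
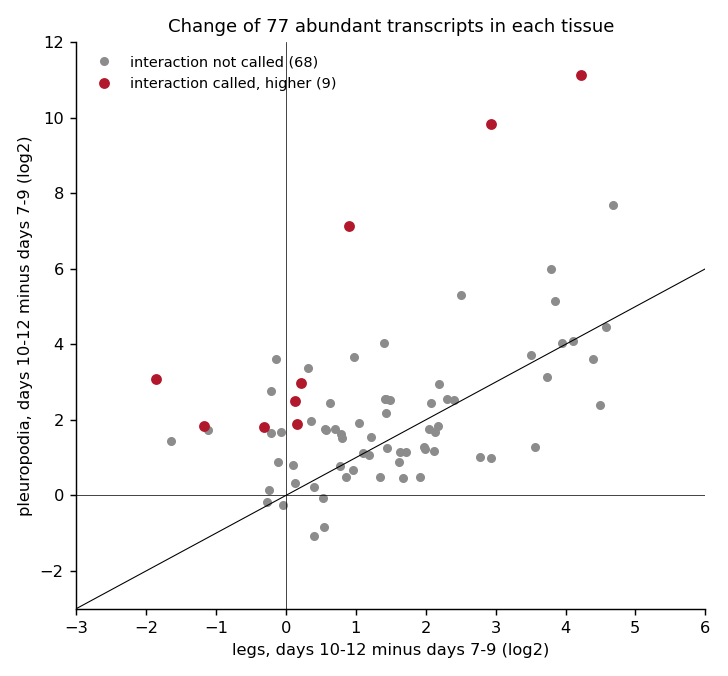
Change between the periods (days 10-12 minus days 7-9, log2) in legs (horizontal axis) and in pleuropodia (vertical axis) for the 77 abundant transcripts. Points on the diagonal changed alike in both tissues. The 9 transcripts with an upward call (red) lie well above it, and many of the other 68 (grey) lie near it, with 23 of the 77 called as rising in legs.

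Among membrane, matrix and regulatory proteins 3 of 9 moved upward, with a median change of 1.01 over the 9. A protein with a DUF4773 domain (SgreTa0002988), whose role is not known, was at 8677, 9726 and 8933 RPKM in pleuropodia of days 10, 11 and 12, against 11.3, 19.9 and 14.3 RPKM in legs. Earlier, at days 7, 8 and 8-9, the level was 0.448, 22.5 and 7.61 RPKM in pleuropodia, against 0.315, 0.284 and 0.325 RPKM in legs. At day 7 the tissues were nearly alike. The lead widened by 6.91 ± 1.26 (SE, adjusted p = 0.0083), and by 6.05 with voom (adjusted p = 0.12). With a pseudocount of 0.1 it widened by 6.15 (adjusted p = 0.031), and with 1 by 7.34 (adjusted p = 0.0032).

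A leucine rich repeat protein (SgreTa0004471) was at 854, 665 and 873 RPKM in pleuropodia of days 10, 11 and 12, against 74.2, 89.1 and 61.3 RPKM in legs. Levels at days 7, 8 and 8-9 were 286, 430 and 263 RPKM in pleuropodia, against 103, 126 and 91.1 RPKM in legs. Its lead widened by 2.12 ± 0.34 (SE, adjusted p = 0.0045), a call that held under every alternative (adjusted p = 0.0016 to 0.026). Tob (SgreTb0019827), a member of a family of antiproliferative proteins, was at 791, 764 and 986 RPKM in pleuropodia of days 10, 11 and 12, against 132, 119 and 173 RPKM in legs. At days 7, 8 and 8-9 it was at 121, 207 and 374 RPKM in pleuropodia, against 138, 163 and 139 RPKM in legs. It was newly higher in pleuropodia, by 3.21 at days 10-12, and the difference increased by 2.36 ± 0.60 (SE, adjusted p = 0.037). This call was lost when any single library other than the pleuropodia of day 8-9 or the legs of day 12 was left out (adjusted p = 0.055 to 0.1), and with voom (0.063).

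Of 3 lysosomal transcripts the LITAF homolog (SgreTa0001486), related to a protein of late endosomes and lysosomes, moved upward, and the median change of the 3 was 1.62. It was at 891, 647 and 1790 RPKM in pleuropodia of days 10, 11 and 12, against 38.8, 50.5 and 48.2 RPKM in legs. Pleuropodia of days 7, 8 and 8-9 held it at 261, 451 and 526 RPKM, against 130, 102 and 126 RPKM in legs. Pleuropodia rose by 1.85 ± 0.44 (SE, adjusted p = 0.015), and the change in legs was -1.17 ± 0.44 (SE, adjusted p = 0.1). The lead widened by 3.02 ± 0.62 (SE, adjusted p = 0.014), and without the pair of day 8-9 the call was lost (3.18, adjusted p = 0.055). Cathepsin L (SgreTb0000759), a lysosomal protease, gave 1.62 ± 0.62 (SE, adjusted p = 0.16).

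Of 7 transcripts of lipid metabolism a phospholipase B-like transcript (SgreTa0014098) was newly higher, while the median change of the 7 was -0.176. It was at 579, 560 and 594 RPKM in pleuropodia of days 10, 11 and 12, against 209, 204 and 208 RPKM in legs. In the earlier period, days 7, 8 and 8-9, it was at 276, 215 and 179 RPKM in pleuropodia, against 245, 242 and 162 RPKM in legs, where the tissues overlapped. The difference increased by 1.74 ± 0.32 (SE, adjusted p = 0.0087, 0.0034 to 0.031 over the alternatives). An alpha-tocopherol transfer protein (SgreTa0005752), of a family of lipid carriers, gave -1.39 ± 0.41 (SE, adjusted p = 0.067). It passed with the day as a block (adjusted p = 0.042), without the pleuropodia of day 11 (-1.63, adjusted p = 0.038) and without the legs of day 12 (-1.51, adjusted p = 0.048).

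In limma 0 calls were made among 4 transcripts of redox and iron metabolism, 3 of melanization and pattern recognition, 3 serine protease inhibitors, 2 chemoreception-type proteins, 20 abundant transcripts without a name or 2 of ecdysone synthesis, and with voom also 0. At an unadjusted p below 0.05 these lists held 4 upward and 0 downward changes. Some members varied widely within a group, so that a large change could go uncalled. The SE of the change was 3.1 for the unnamed SgreTa0009217, 2.51 for the peroxidase and 2.05 for spook. Its median over all transcripts tested was 0.415, and ferritin, also in these lists, had 0.378. Peroxiredoxin (SgreTa0013400), which removes peroxides, gave 1.88 ± 0.57 (SE, adjusted p = 0.075), and 2.43 without the pleuropodia of day 8 (adjusted p = 0.0053). Disembodied (SgreTa0014975), a P450 enzyme of the ecdysone pathway, gave 1.61 ± 0.45 (SE, adjusted p = 0.056), and passed without the legs of day 11 (1.86, adjusted p = 0.045) and without those of day 12 (1.23, adjusted p = 0.035). Pro-phenoloxidase (SgreTa0006966), the precursor of the melanizing enzyme and a product of haemocytes, was at 462, 1041 and 2540 RPKM in pleuropodia of days 10, 11 and 12, against 187, 136 and 112 RPKM in legs. Earlier, at days 7, 8 and 8-9, the level was 0.75, 30.9 and 8.82 RPKM in pleuropodia, against 0.332, 24.7 and 9.77 RPKM in legs. It rose in pleuropodia by 7.7 ± 1.33 (SE, adjusted p = 0.0037) and in legs by 4.68 ± 1.33 (SE, adjusted p = 0.042), and its difference changed by 3.02 ± 1.88 (SE, adjusted p = 0.43). The part of haemocytes in the results was not tested.

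Of 3 limb identity genes tested 0 were called in limma and 0 with voom, and 1 was lower at an unadjusted p below 0.05. Ubx, the Hox gene that marks the segments of both appendages, was at 3.17, 3.62 and 2.12 RPKM in pleuropodia of days 10, 11 and 12, against 87.1, 99.4 and 24 RPKM in legs. Levels at days 7, 8 and 8-9 were 28.8, 13.8 and 25.1 RPKM in pleuropodia, against 121, 100.1 and 139 RPKM in legs. It fell in pleuropodia by 2.26 on the log2 scale (-2.26 ± 0.36, SE, adjusted p = 0.0028). The difference changed by -1.46 ± 0.51 (SE, adjusted p = 0.12), and was called with the day as a block (adjusted p = 0.042) and without the legs of day 12 (-1.9, adjusted p = 0.0081). Dll, which is needed for the outer parts of limbs, gave 1.64 ± 0.85 (SE, adjusted p = 0.33), and abd-A was too low to be tested, at 0.913, 0.273 and 0.432 RPKM in pleuropodia of days 10, 11 and 12, against 0.13, 0.13 and 0.11 RPKM in legs.

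The largest changes were in transcripts that the files do not pair with a name. The largest upward call, SgreTa0010830, was at 94.1, 103 and 191 RPKM in pleuropodia of days 10, 11 and 12, against 0.116, 0.0582 and 0.263 RPKM in legs. At days 7, 8 and 8-9 it was at 0, 1.06 and 0.277 RPKM in pleuropodia and had no read in legs, where 3 reads would amount to 0.183, 0.172 and 0.226 RPKM. It became newly higher in pleuropodia, by 8.07 at days 10-12. The difference increased by 7.28 ± 0.62 (SE, adjusted p = 0.00024), a size that depends on the pseudocount, and with voom the call was lost (adjusted p = 0.068). SgreTa0008305 followed with 7.07 ± 0.93 (SE, adjusted p = 0.0017), at 81.6, 56.3 and 225 RPKM in pleuropodia of days 10, 11 and 12, against 1.64, 2.24 and 3.57 RPKM in legs, and at 0.0916, 0.438 and 0.356 RPKM in pleuropodia of days 7, 8 and 8-9, against 0.56, 5.16 and 1.71 RPKM in legs.

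The largest downward call, SgreTa0005657, was at 2.22, 2.63 and 0.733 RPKM in pleuropodia of days 10, 11 and 12, against 964, 924 and 63.1 RPKM in legs. At days 7, 8 and 8-9 it was at 2.54, 2.78 and 8.6 RPKM in pleuropodia, against 0.115, 0.154 and 0.238 RPKM in legs. The order of the tissues was thus reversed between the periods (-9.77 ± 1.14, SE, adjusted p = 0.00087). SgreTb0039046 lost its lead (-9.41 ± 1.18, SE, adjusted p = 0.0014). It was at 9.08, 69.1 and 2.76 RPKM in pleuropodia of days 10, 11 and 12, against 39.5, 25.2 and 13.6 RPKM in legs, and at 332, 432 and 386 RPKM in pleuropodia of days 7, 8 and 8-9, against 0.174, 0.538 and 0.0923 RPKM in legs. Here pleuropodia fell by 4.42 on the log2 scale (-4.42 ± 0.83, SE, adjusted p = 0.0055) and legs rose by 4.99 ± 0.83 (SE, adjusted p = 0.003), whereas SgreTa0005657 rose in legs by 9.11 ± 0.80 (SE, adjusted p = 0.00012) without a call in pleuropodia.

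Besides these 4, the rule for named transcripts picked 27 more without a name, by the size of the change or as the clearest calls of each class, and they are given in number only. Together with these 4, 13 moved upward, with changes of 0.68 to 7.28, and 18 downward, with changes of -9.77 to -2.51. Of the 18, 9 fell in pleuropodia and rose in legs, 6 rose in legs only, 2 fell in pleuropodia only and 1 rose in both tissues. Of the 13, 8 rose in pleuropodia only, 3 rose in pleuropodia and fell in legs, and 2 fell in legs only.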

How the data were processed

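Messenger RNA of dissected pleuropodia and T3 legs was sequenced by the authors, 1 library per tissue and day. Reads were aligned locally by the authors to an embryonic transcriptome that they had assembled (Bowtie2 2.2.5), weakly expressed transcripts were removed with HTSFilter, and RPKM for 12988 transcripts were deposited under the name of a count matrix. For the pair of day 8-9 the sample notes state that reads of 1 direction were used, whereas the methods describe concatenated mates. A deposited table of the authors' own comparison (their mean RPKM, ratios and probabilities from NOISeq) was not used. No reference genome or transcript sequence was used here.

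Groups were taken from the sample titles. RPKM of the 12 libraries were scaled by trimmed means of ratios (30% of ratios and 5% of abundances trimmed), transcripts with at least 1 RPKM in 3 libraries were kept, and log2(RPKM + 0.5) was fitted with limma 3.58.1 (trend) in R 4.3.3 with 4 groups. The interaction was (pleuropodia minus legs at days 10-12) minus (pleuropodia minus legs at days 7-9), with Benjamini-Hochberg adjustment over 12102 transcripts at 0.05. The 3 days of a period served as replicates, so p-values measure the spread between days of 1 library each. The fit was tested on simulated data in which noise was independent between libraries and its SD was capped at 1 on the log2 scale. Transcripts of larger spread and a correlation between libraries of the same day were not covered by it. The reads behind the RPKM were recovered: 100.00% of the values came out as whole reads within 0.05 reads, and limma-voom on these reads was an alternative chosen after the data were seen. Intervals and limits from reads cover counting error only. Libraries of the same day share the age of the embryos, and the residuals of such pairs correlated at 0.380, 0.400, 0.640, 0.219, 0.0003 and 0.187 for days 7, 8, 8-9, 10, 11 and 12. The day as a block was therefore an alternative, and it gives no change between periods within a tissue. Further alternatives were the scaling, the pseudocount, the filter, and leaving out each library or the pair of day 8-9. Figures were drawn with matplotlib 3.10.9 in Python 3.11.15.

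Named transcripts were the members of the lists, the 8 largest interactions in each direction with a mean of at least 10 RPKM in a group, and the 2 calls of smallest p in each class. Names come from the paper. For 10 members, Sg-cht5-2, Sg-cht2, Sg-idgf-1, Sg-nag1, Sg-fdl, Sg-hex, Sg-Lyz-like-1, Sg-LyzI-4, disembodied and spook, the identifier was matched through the levels the paper prints, after the data were seen. Members and lists were chosen with earlier results of these data known.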

Additional observations from a re-analysis of the deposited data

Results flagged for a closer look

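The change of the tissue difference between the periods is itself a difference between 2 groups of days under the same contrast, tested by the interaction term in limma. It passed in 239 transcripts upward and 709 downward, and among list members in 10 upward and 1 downward. Among named transcripts the change was 6.91 for the myrosinase-like glycosyl hydrolase (SgreTa0001321), 6.91 for the DUF4773-domain protein (SgreTa0002988), 6.63 for Sg-cht5-2 (SgreTa0015585), 6.22 for the sodium:neurotransmitter symporter (SgreTa0017826) and 4.93 for phosphoenolpyruvate carboxykinase (SgreTa0013377). It was 3.02 for the LITAF homolog (SgreTa0001486), 2.76 for the Snake-like protease (SgreTa0000783), 2.36 for Tob (SgreTb0019827), 2.12 for the leucine rich repeat protein (SgreTa0004471), 1.74 for the phospholipase B-like transcript (SgreTa0014098) and -2.94 for the Easter-like protease (SgreTa0006780). Among transcripts without a name it was 7.28 for SgreTa0010830, 7.07 for SgreTa0008305, -9.77 for SgreTa0005657 and -9.41 for SgreTb0039046.

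The libraries of day 13, 1 per tissue, entered no fit. There the difference between the tissues lay beyond its mean of days 7-9, in the direction of the call, in 224 of the 239 upward calls (93.7%) and in 688 of the 709 downward calls (97%). Of all transcripts tested 50.9% lay above that mean and 49.1% below it. The median difference at day 13 was 2.23 for the upward calls and -3.55 for the downward calls, against 2.67 and -2.91 at days 10-12 and 0.364 and -0.0699 at days 7-9. The mean of days 7-9 also entered the calls, which favours a day 13 value beyond it. The shares over all transcripts are therefore not a like baseline. With 1 library per tissue this has no test.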

How the results depend on the processing

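Without scaling for composition pleuropodia were higher in 1813 and lower in 5064 transcripts at days 10-12, rose in 692 and fell in 2766, and 5 list members had a downward interaction. With a pseudocount of 0.1 the list members with a downward interaction numbered 2, and with the day as a replicate block 6. A filter of 5 RPKM gave 150 upward and 407 downward interactions, 898 rises in pleuropodia and 707 rises in legs, with 8850 transcripts tested. Voom on the recovered reads gave 110 upward and 443 downward interactions and 5 list members upward, and 514 of the 948 calls were called there in the same direction. The cause was not tested. Without the pair of day 8-9 there were 349 downward interactions, 831 falls in pleuropodia, 201 falls in legs and 0 list members downward (the Easter-like protease had adjusted p = 0.058), with fewer samples. The block gave 348 upward and 687 downward interactions and changed no count of calls by more than 1.5 times except that of the list members downward. The members behind these counts changed more: 737 of the 948 calls were called with the block in the same direction.

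Leaving out 1 library at a time gave 120 to 472 upward and 407 to 1011 downward interactions. At days 10-12 pleuropodia were higher in 2656 to 3686 and lower in 2249 to 3456 transcripts, and at days 7-9 higher in 2093 to 3159 and lower in 1422 to 2906. Pleuropodia rose in 752 to 2145 and fell in 519 to 2131, and legs rose in 720 to 1251 and fell in 106 to 445. The difference in the spread between the periods was 0.389 to 0.515, against 0.475 with all libraries. List members numbered 7 to 19 upward and 1 to 3 downward. Depth limits the transcripts under about 1 RPKM, where legs held 0 to 3 reads in several of the named cases.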

Other observations

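At day 13, just before the end of embryogenesis, the called list members are given here for the 1 library of each tissue, without a test. The DUF4773-domain protein (SgreTa0002988) was at 17660 RPKM in pleuropodia and 20.8 RPKM in legs, and the myrosinase-like hydrolase (SgreTa0001321) at 3760 RPKM in pleuropodia and 5.42 RPKM in legs. The Snake-like protease (SgreTa0000783) was at 1694 RPKM in pleuropodia and 11.9 RPKM in legs. Phosphoenolpyruvate carboxykinase (SgreTa0013377) was at 306 RPKM in pleuropodia and 23.3 RPKM in legs, a difference of 3.66, against 6.14 at days 10-12. The sodium:neurotransmitter symporter (SgreTa0017826) was at 274 RPKM in pleuropodia and 1.6 RPKM in legs, a difference of 7.13, against 9.53 at days 10-12. Tob (SgreTb0019827) was at 583 RPKM in pleuropodia and 139 RPKM in legs, a difference of 2.03, against 3.21 at days 10-12. The Easter-like protease (SgreTa0006780), whose lead had narrowed, was at 11.9 RPKM in pleuropodia and 1.14 RPKM in legs, a difference of 3.04, against 4.29 at days 10-12 and 7.23 at days 7-9. The chitinase Sg-cht5-2 (SgreTa0015585) was at 51.7 RPKM in pleuropodia and 0.182 RPKM in legs, a difference of 6.7, against 5.92 at days 10-12. The LITAF homolog (SgreTa0001486) was at 671 RPKM in pleuropodia and 22 RPKM in legs, the leucine rich repeat protein (SgreTa0004471) at 756 RPKM in pleuropodia and 30.2 RPKM in legs, and the phospholipase B-like transcript (SgreTa0014098) at 532 RPKM in pleuropodia and 137 RPKM in legs, with differences of 4.87, 4.59 and 1.91. In all 11 the difference at day 13 lay beyond its mean of days 7-9 in the direction of the call. That mean also entered the calls that picked these 11, so their choice favours this result. Of all transcripts tested, 50.9% lay above their mean of days 7-9 and 49.1% below it.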
